A study of Macaca mulatta with 27 samples.

Results

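The SOX, FOX and KLF genes are 3 families of DNA-binding proteins that set cell identity. SOX proteins bend DNA with a high mobility group box and often act beside POU factors. FOX proteins bind through a winged-helix forkhead domain, and several read out growth factor signals. KLF proteins bind GC-rich promoters through zinc fingers, and KLF4 is one of the factors that return somatic cells to pluripotency. The set described here holds every gene whose symbol on the array began with SOX, FOX or KLF and a family number, apart from 7 relatives that were left out (SOX2, FOXA1, FOXA2, FOXD3, FOXN1, FOXO1 and KLF5). It has 53 genes of the 14132 that had a symbol of their own: 14 SOX, 25 FOX and 14 KLF genes. Each gene was read from the 1 probe set with the highest mean over all arrays, out of 111 probe sets for the 53 genes.

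The study compared 10 embryonic stem cell lines from rhesus macaques on 27 arrays, to learn how far newly made lines of known parentage resemble each other. Lines 106 (male), 206 (female) and 306 (male) were full siblings, the triplet family, by the male M106 and the female F244. Lines 2706 (male), 2906 (female), 3006 (female) and 3106 (male) came from M106 and F88, the quadruplet family. Line 2406 (female) came from M106 and F77, line 3806 (female) from M106 and F32, and line 906 (male) from M36 and F183. Each line came from a single embryo, and none carried a genetic change or received a drug by the labels. All were grown on mitomycin C-treated mouse embryonic fibroblasts in medium with bFGF, Activin A and LIF, and colonies of good morphology were scraped off for RNA. There was 1 array of line 2906, 2 of line 206 and 3 of each of the other 8 lines, named here by line and the labels' letter. Nothing in the labels ties a line's arrays to separate cultures. The p-values among lines therefore rest on the spread of these arrays, which may be technical. In a culture with other cells, fewer cells of a type and less RNA per cell cannot be told apart.

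Some arrays stood apart. The share of probe sets called present ran from 38.2% to 46.9%. The median signal was highest on 106c, 206c, 306c and 906c. On these 4 arrays the summed signal of 9 fibroblast markers was 50896 to 82632, against 11120 to 28640 on the other 23, and all 9 markers had the higher mean there. Only for 2 of the 9 did the values on these 4 arrays not overlap with those on the others. The ratio of the 3' to the 5' GAPDH probe set, a sign of RNA quality, was over 3 on 6 arrays (106c, 2406d, 2406e, 3006a, 3006c and 2906d) and reached 13.3 on 2906d, the only array of its line. The pluripotency factors POU5F1 and SOX2 were called present on all 27 arrays and NANOG on 26.

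The authors' detection calls divided the set into 3 parts. On all 27 arrays 22 of the 53 genes (41.5%) were called present, against 49% of all genes. A further 16 genes (30.2%) were called present on some arrays, and 15 (28.3%, against 22.9% of all genes) on none. A single array had between 25 and 33 of the 53 genes present. An absent call does not show that a gene was silent, since a rhesus probe set can also fail to detect its transcript.

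**Figure D1:**
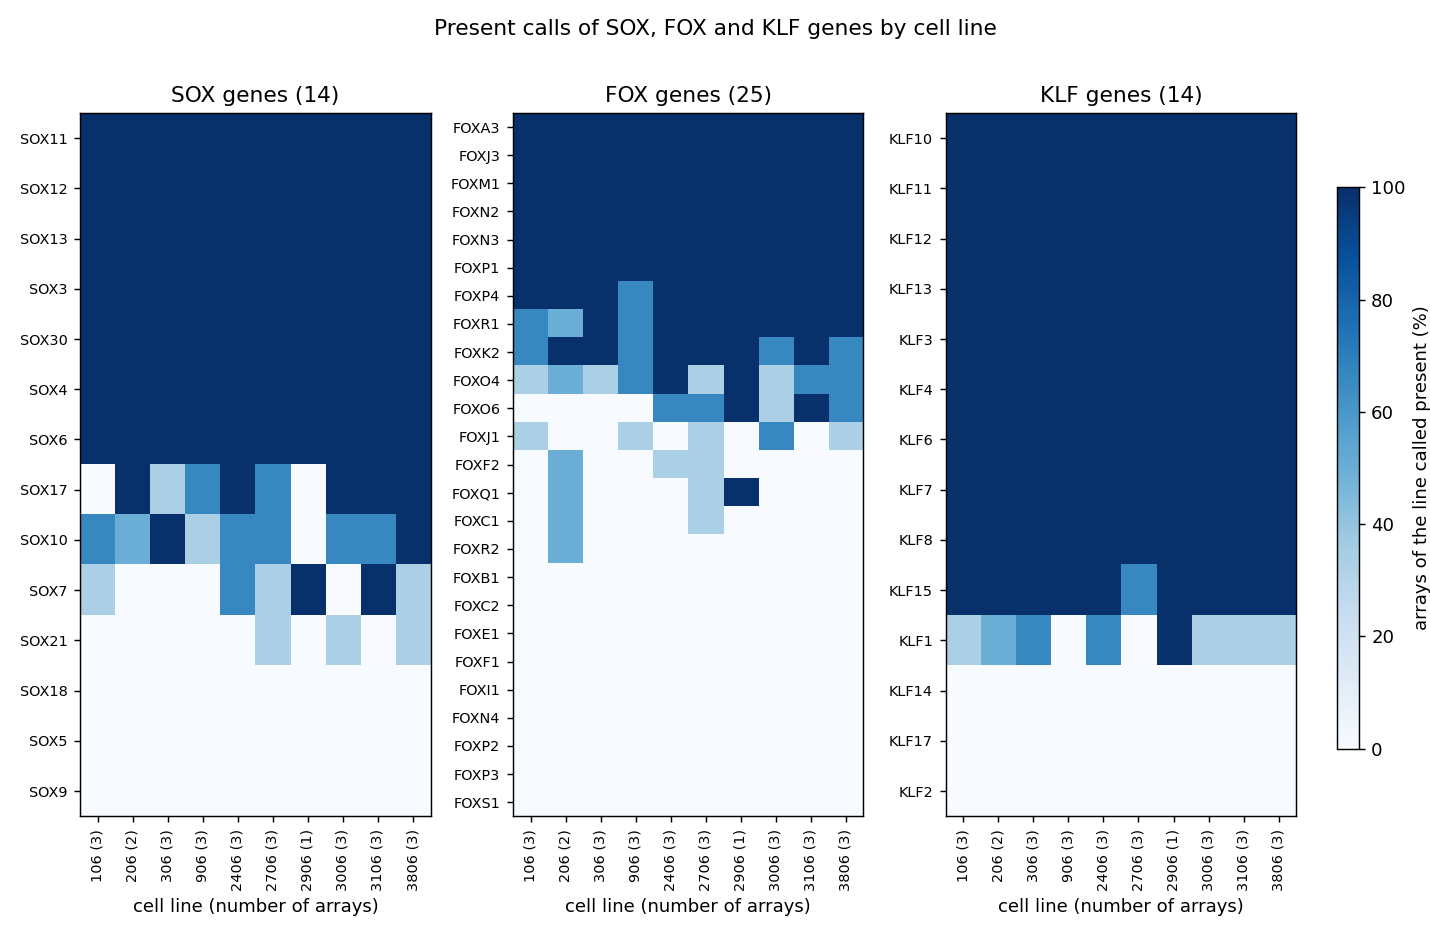
Share of each line's arrays (colour, 0 to 100%) on which each SOX, FOX or KLF gene (rows) was called present, with lines in columns and their number of arrays in brackets. The dark upper block holds the 22 genes present on all 27 arrays, the pale lower block the 15 genes present on none, and the rows between them the 16 genes called present on 1 to 26 arrays.

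Of the SOX genes, 7 of 14 were present on every array. They were SOX3, the X-linked close relative of SOX2, the SoxC genes SOX4, SOX11 and SOX12, which are known from neural and mesenchymal progenitors, the SoxD genes SOX6 and SOX13, and SOX30, known from male germ cells. The next 4 were called on some arrays: SOX17 on 19, SOX10 on 18, SOX7 on 9 and SOX21 on 3. SOX5, SOX9 and SOX18, known for cartilage and vessel development, were present on none. SOX17, which starts endoderm, was present on all arrays of lines 206, 2406, 3006, 3106 and 3806 and on no array of lines 106 and 2906.

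Of the FOX genes, 6 of 25 were present on every array: FOXM1, an activator of mitotic genes, FOXA3, a gut and liver factor, and FOXJ3, FOXN2, FOXN3 and FOXP1. FOXP4 was called on 26 arrays, FOXR1 on 24, FOXK2 on 23, FOXO4 on 15, FOXO6 on 11, FOXJ1 on 6, FOXF2 and FOXQ1 on 3 each, FOXC1 on 2 and FOXR2 on 1. FOXO4 and FOXO6 are forkhead proteins held in check by insulin and growth factor signals. The 9 genes called on no array were FOXB1, FOXC2, FOXE1, FOXF1, FOXI1, FOXN4, FOXP2, FOXP3 and FOXS1, several of them known from single differentiated lineages, such as FOXP3 in regulatory T cells and FOXE1 in thyroid.

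Of the KLF genes, 9 of 14 were present on every array: KLF3, KLF4, KLF6, KLF7, KLF8, KLF10, KLF11, KLF12 and KLF13. KLF15 was called on 26 arrays and KLF1, the erythroid factor, on 10. KLF2, KLF14 and KLF17 were called on none. KLF2 supports naive pluripotency in mouse, and KLF17 is a marker of the naive state in human. The KLF2 probe set read from 4.71 to 7.52 over the arrays, in log2(signal + 16), and since none of these arrays called it present, these values only bound its level.

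Members that differed among the 10 lines were sought with limma's F test over all arrays, on log2(signal + 16), with p-values adjusted over all 32856 probe sets that were bright enough to test. Of the 53 genes, 38 passed the brightness filter and 15 were not tested. KLF genes held most of the calls when all lines were included. Among the 38 tested members 12 passed an adjusted p of 0.05, or 31.6%, against a background of 17.4% of genes (1966 of 11299), and 21 had an unadjusted p under 0.05, as had 34.3% of all genes. They were 7 of 11 KLF genes (KLF1, KLF4, KLF6, KLF7, KLF10, KLF12 and KLF13), 4 of 17 FOX genes (FOXQ1, FOXE1, FOXP1 and FOXP4) and 1 of 10 SOX genes (SOX17). Of the 22 genes present on all arrays, 7 passed, and the matching share over all genes present on all arrays was not computed. Without the 6 arrays of high GAPDH ratio 7 members passed, with 8.23% of genes, and 5 of them were KLF genes. Without line 3006 7 passed too, with 9.98% of genes. These were 3 of 11 KLF, 3 of 17 FOX and 1 of 10 SOX genes, so KLF genes then did not hold most of the calls.

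The line means spread more among KLF than among SOX genes, in values that were not compared by a test. The range from the lowest to the highest line mean had a median of 1.11 log2 units over the 38 members and 0.86 over all genes tested, and it passed 1 log2 unit for 24 of 38 members against 37.9% of genes. By family the median range was 1.36 for KLF, 1.09 for FOX and 0.94 log2 units for SOX genes, the last near that of all genes. The share of a gene's variance that lay between lines had a median of 37.7% over the members and 25.4% over all genes. This median was 56.5% for KLF, 34.0% for SOX and 31.5% for FOX genes. Line 2906 held the highest mean for 12 of the 38 tested members, more than any other line, and the lowest for 5. Its mean is a single array, that with the highest GAPDH ratio (13.3). How often line 2906 was highest over all genes was not counted, so this count cannot be read as particular to the members.

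**Figure D2:**
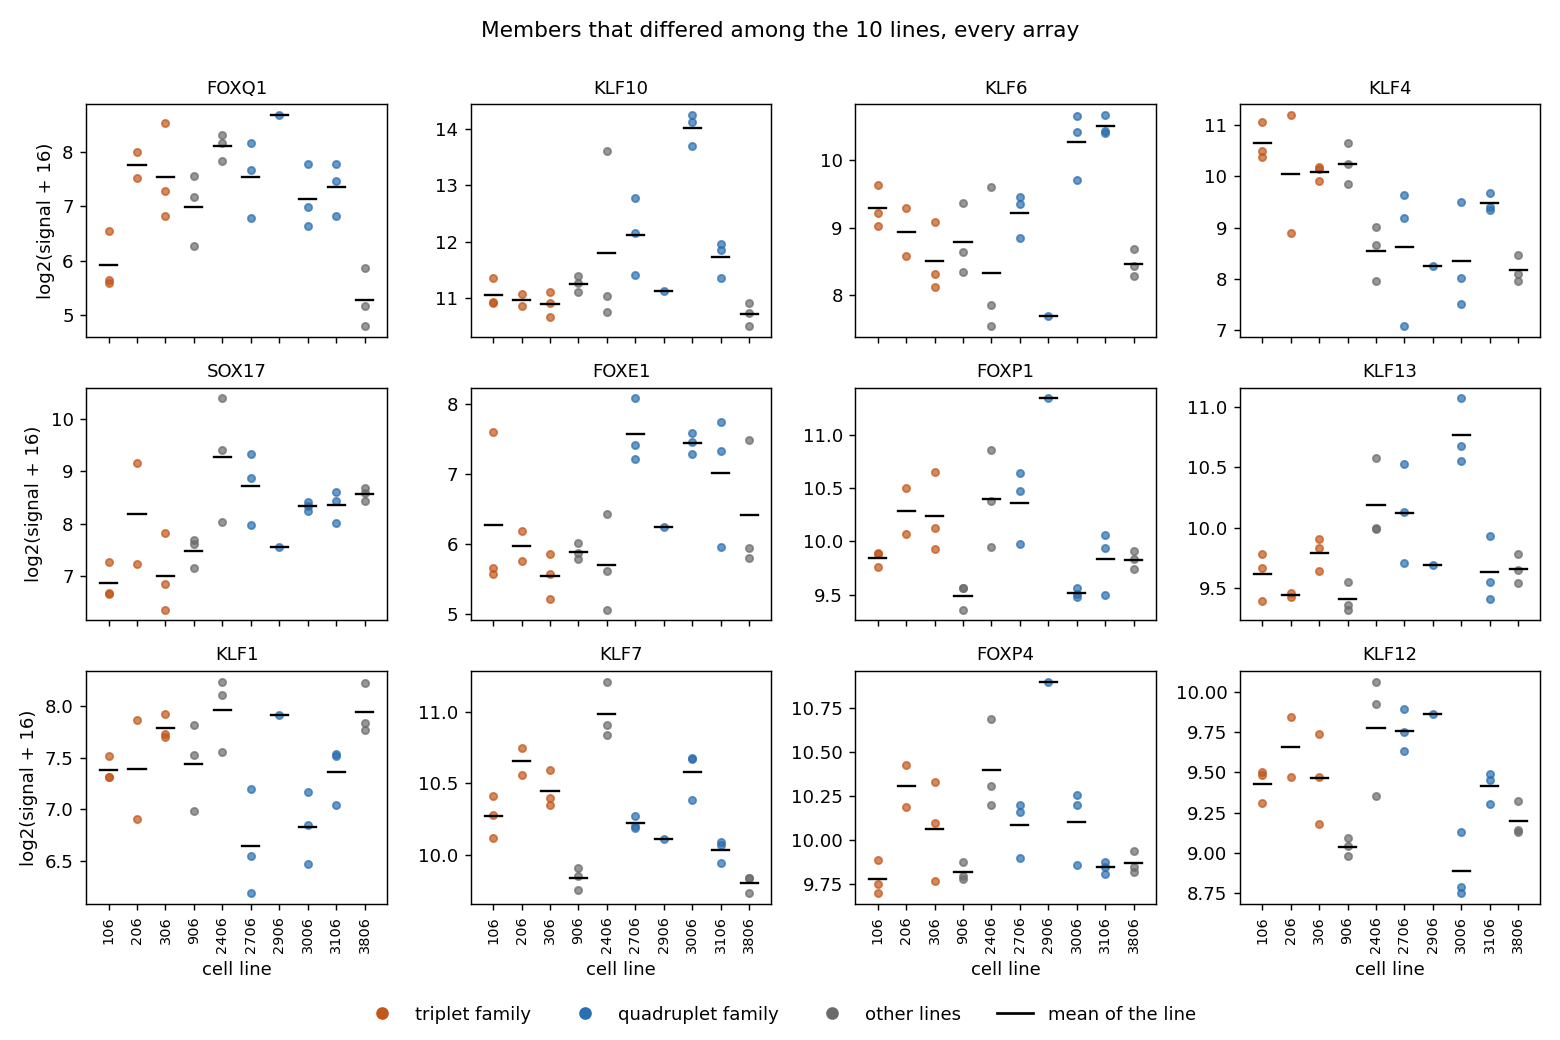
Level of the 12 members that differed among lines, in log2(signal + 16), with lines on the x axis, 1 point for each array, coloured by family, and a bar at the mean of the line. KLF10 sits near 14 in line 3006, KLF6 is high in lines 3006 and 3106, KLF4 is high in lines 106, 306 and 906 and on 1 of 2 arrays of line 206, and the only array of line 2906 is the highest for FOXQ1, FOXP1 and FOXP4.

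KLF10, a factor first known for its induction by TGF-beta, had a line range of 3.30 log2 units, a 9.88-fold difference (adjusted p 0.0018). In line 3006 the 3 arrays read 14.12, 14.25 and 13.70, a mean of 14.02 ± 0.29 (SD, n = 3). In line 3806 they read 10.50, 10.92 and 10.74, a mean of 10.72 ± 0.21 (SD, n = 3). All 3 arrays of line 3006 lay above all arrays of the other lines.

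Between these extremes KLF10 also differed within lines. Array 2406a read 13.61 where 2406d and 2406e read 11.03 and 10.75. In line 2706 the arrays read 12.78, 11.41 and 12.16, and in line 3106 they read 11.97, 11.36 and 11.86. Lines 106, 206, 306, 906 and 2906 lay between 10.67 and 11.39 on every array. All 3 arrays of line 2706, 2 of line 3106 and 1 of line 2406 lay above these lines, by less than those of line 3006. Without line 3006 its adjusted p was 0.347 and its range 1.40 log2 units.

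KLF6, which is induced early after growth factors or injury, had a range of 2.82 log2 units, a 7.04-fold difference (adjusted p 0.0029). Line 3106 read 10.40, 10.44 and 10.67, and line 3006 read 9.71, 10.42 and 10.66. Line 2406 read 9.60, 7.54 and 7.85, and the single array of line 2906 read 7.69. The arrays of lines 3006 and 3106 lay above every array of the other lines, which ended at 9.64 on 106c. KLF6 passed the test under every alternative tried. Of its other 5 probe sets 2 passed too (adjusted p 0.0052 and 0.0300), and all 5 followed the first over the lines with r of 0.73 or more.

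KLF13, a repressor and activator of T cell and heart genes, had a range of 1.36 log2 units (adjusted p 0.0029). Line 3006 was highest, with 10.68, 11.07 and 10.55 and a mean of 10.77 ± 0.27 (SD, n = 3), and line 906 was lowest, with 9.32, 9.36 and 9.55. Arrays 2406a at 10.58 and 2706a at 10.53 were the highest outside line 3006, as they were for KLF10. Its second probe set also differed among lines (adjusted p 0.0021) and was again highest in line 3006. Without line 3006 the adjusted p of the main probe set was 0.112.

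The immediate early genes, which cells switch on within minutes of a stimulus, were high by summed signal in lines 3106 and 3006 and on 2406a and 2706a. All 6 of the 6 tested (FOS, EGR2, JUNB, IER2, DUSP1 and ATF3) differed among lines, and the list's median range was 2.64 log2 units. Their summed signal was 29621 to 32516 in line 3106, 16500 to 25296 in line 3006, 17117 on 2406a and 10418 on 2706a. Every other array had a sum between 3683 and 8940. FOS alone was also high on 106c, 206c, 306c and 906c, at 10.37, 10.91, 10.06 and 10.49. It read 10.53 on 3006a and 9.43 on 2706a. On 106c, 206c, 306c and 906c KLF6 read 9.64, 9.30, 9.08 and 9.37, the highest value of each of these lines. Line 3106 had the highest sum of this list with KLF10 at 11.36 to 11.97 and KLF13 at 9.93, 9.41 and 9.55. KLF6 was high in both lines 3106 and 3006, while KLF10 and KLF13 were highest in line 3006. The part of this response in the KLF values was not tested.

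Over the 10 line means KLF6 followed FOS with Pearson r = 0.92 (permutation adjusted p 0.0008) and Spearman rho = 0.93 (permutation adjusted p 0.0034), among 10 pairs of genes tested, of which 4 passed. Without lines 3106 and 3006, which lay farthest out for FOS, r was 0.79, and without the 4 arrays of highest median it was 0.91. Of the 10 lines 9 share a sire, so they are not independent. KLF4, which is also an early response gene in some cells, had r = 0.11 with FOS (permutation adjusted p 0.903), and r moved to 0.62 without lines 3106 and 3006 and to -0.32 without the arrays of high GAPDH ratio.

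**Figure D3:**
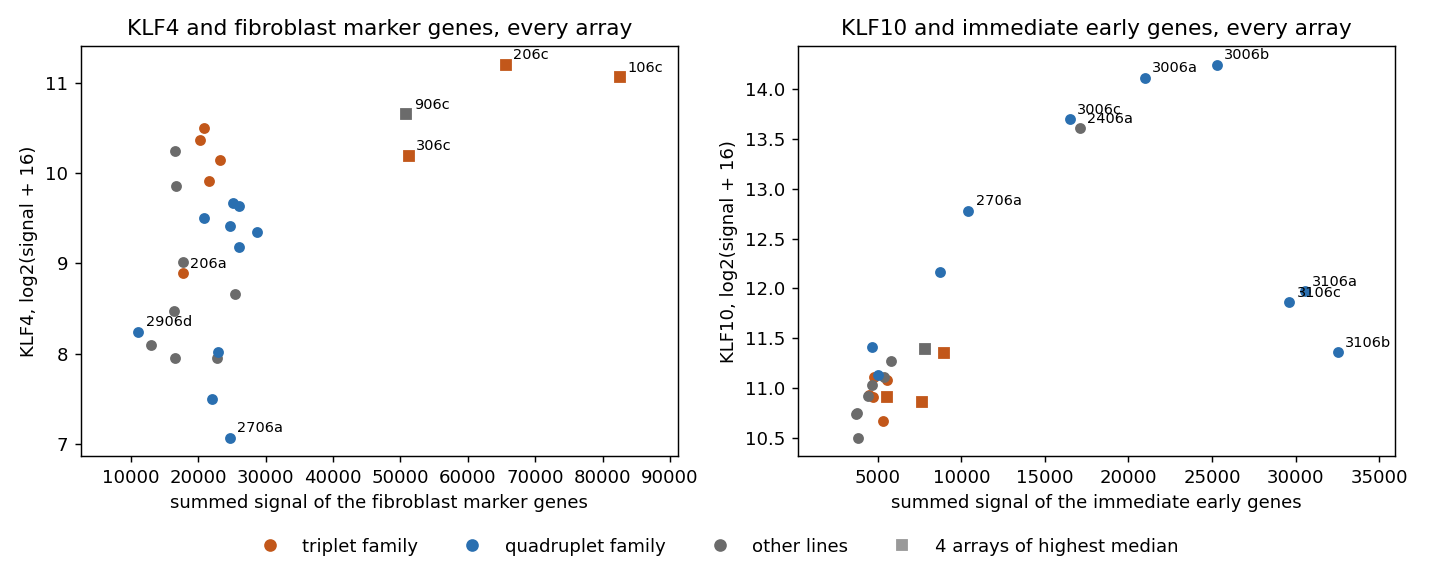
Left, KLF4 in log2(signal + 16) against the summed signal of 9 fibroblast markers, and right, KLF10 against the summed signal of 6 immediate early genes, with 1 point for each of 27 arrays, coloured by family, and squares for the 4 arrays of highest median. The squares lie apart at 50896 and above, while KLF4 also passes 10 on triplet arrays that do not; KLF10 is highest on the 3006 arrays and 2406a, and the 3106 arrays have the largest early sum with KLF10 below 12.

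KLF4 had a range of 2.47 log2 units, a 5.56-fold difference (adjusted p 0.0159). It was high in line 106, with 10.50, 11.06 and 10.37, in line 306, with 10.14, 9.91 and 10.19, and in line 906, with 10.24, 10.65 and 9.85. In line 206 the arrays read 8.89 and 11.20. Line 3106 came next, with 9.41, 9.35 and 9.67.

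The remaining lines were lower for KLF4. Line 2406 read 7.95, 9.01 and 8.66, line 2706 read 7.07, 9.63 and 9.18, and line 3006 read 7.50, 8.02 and 9.50. Line 3806 read 7.95, 8.47 and 8.10, and the array of line 2906 read 8.24. Lines 106, 306 and 906 lay above every array of these lines without overlap, whereas the 2 arrays of line 206 lay on both sides.

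In lines 106, 206, 306 and 906 the array with the highest KLF4 was the one of high median and high fibroblast signal. Without those 4 arrays the line means were 10.44 in 106, 8.89 in 206, 10.03 in 306 and 10.04 in 906, the range was 2.27 log2 units and the adjusted p was 0.0514. COL1A2, a collagen gene of that marker list, was at 10.69 or higher on all 11 arrays of these 4 lines and at 10.58 or lower on the other 16. The summed signal of the 9 markers did not divide the lines this way. Outside the 4 arrays of highest median it was 16550 to 23277 in these 4 lines. It was 24641 to 28640 in line 3106 and 11120 on the array of line 2906. Of the 8 fibroblast markers tested 2 differed among lines (COL1A1 and COL1A2), and of the 9 on the array 0 were absent throughout. The part of fibroblast RNA in the KLF4 values was not tested. A second KLF4 probe set, present on 1 array, had an adjusted p of 0.0954 and r = 0.77 with the first over the lines.

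KLF15, a metabolic regulator induced by glucocorticoids, was chosen here after its values were seen. It read 7.24 on 2706a, 7.58 on 3006a, 7.59 on 3006b and 8.05 on 2406a, and 8.84 to 9.94 on every other array. These 4 arrays were among the 5 with KLF10 above 12.5, and KLF4 was at 8.02 or lower on all of them. The F test of KLF15 gave an adjusted p of 0.166.

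KLF7, known from neuron outgrowth, was the member with the most of its variance between lines, 90.4%, and the lowest adjusted p (0.00014). Line 2406 read 10.91, 10.84 and 11.21, a mean of 10.99 ± 0.19 (SD, n = 3). Lines 3806 and 906 read 9.73, 9.84 and 9.84, and 9.75, 9.85 and 9.91. Line 206 at 10.75 and 10.56 and line 3006 at 10.38, 10.68 and 10.67 lay between, and line 2406 overlapped with no other line. Its range was 1.18 log2 units, or 2.27-fold, and it passed the test under every alternative tried. Of its other 2 probe sets, both present on all arrays, 1 also put line 2406 highest (adjusted p 0.111) and the other put line 2706 highest (adjusted p 0.0366), and all 3 put line 3806 lowest.

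KLF12, a repressor that recruits CtBP, had a range of 0.97 log2 units (adjusted p 0.0116). It was lowest in line 3006, with 8.79, 8.75 and 9.13, and its highest line mean was that of line 2906, a single array at 9.86. Arrays 2406e at 10.06, 2406d at 9.92 and 2706c at 9.89 were above that array. As a mean of its probe sets KLF12 did not pass (adjusted p 0.376). KLF1 had a range of 1.31 log2 units (adjusted p 0.0188), from 6.65 ± 0.51 (SD, n = 3) in line 2706 to 7.96 ± 0.36 (SD, n = 3) in line 2406, and since it was present on 10 arrays alone, part of that range is background signal. KLF1 lost its call in 5 of 48 alternatives. KLF3 and KLF8, other repressors of the family, had adjusted p of 0.0677 and 0.0931, and KLF11 had 0.413.

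SOX17 was the SOX gene that differed among lines, with a range of 2.42 log2 units, a 5.36-fold difference (adjusted p 0.0181). Line 2406 read 9.42, 8.03 and 10.40, line 2706 read 7.98, 9.34 and 8.87, and line 3806 read 8.58, 8.44 and 8.68. Lines 3006 and 3106 were even, with 8.34, 8.41 and 8.24, and 8.43, 8.01 and 8.61. Line 106 was lowest, with 6.67, 7.27 and 6.65.

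Line 306 read 6.84, 6.35 and 7.82 for SOX17, line 906 read 7.69, 7.15 and 7.61, line 2906 read 7.55, and line 206 read 7.22 and 9.17. No array of lines 2706, 3006, 3106 or 3806 was as low as any array of line 106. The 3 arrays of line 106 were called absent, so their level bounds the difference from below. Without line 106 the adjusted p was 0.0578 and the range 2.28 log2 units. A second SOX17 probe set, present on 7 arrays, followed the first (r = 0.90 over the lines) with an adjusted p of 0.0676.

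Line means of SOX17 followed those of 3 partner genes chosen for it. They followed those of GATA6, an early endoderm factor, with r = 0.94 and rho = 0.90 (permutation adjusted p 0.0008 and 0.0034), and r was 0.86 without lines 106 and 2406. With FOXA2, a forkhead factor of endoderm and a relative left out of the set, r was 0.80 and rho 0.75 (permutation adjusted p 0.0168 and 0.0445), and r was 0.58 without the same 2 lines. With SOX7, its close relative, r was 0.79 and rho 0.81 (permutation adjusted p 0.0168 and 0.0255), and r was 0.89 without lines 3106 and 306. SOX7 was too dim to be tested and had no present call in lines 206, 306, 906 and 3006, so part of its values is background signal. The permutations treat the lines as independent, although most share a sire and several are full siblings.

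On single arrays the highest SOX17 value, 10.40 on 2406e, came with the highest GATA6 value, 12.14, and the highest FOXA2 value, 9.98. In line 206 GATA6 read 8.71 and 10.88 where SOX17 read 7.22 and 9.17. Of 8 endoderm markers tested 3 differed among lines (GATA6, EOMES and AFP), and the summed signal of the list was 12354 to 22447 over the arrays, highest on 2406e. The sum was also high on 106c (19857) and 906c (19620), where SOX17 read 7.27 and 7.15. By line the sum was 18270 in line 906, where SOX17 was low, and 15897 in line 3806, where SOX17 was high. GATA6 was present on all 27 arrays, FOXA2 on 15 and the endoderm marker GATA4 on 6. The part of endoderm-like cells in the SOX17 values was not tested.

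**Figure D4:**
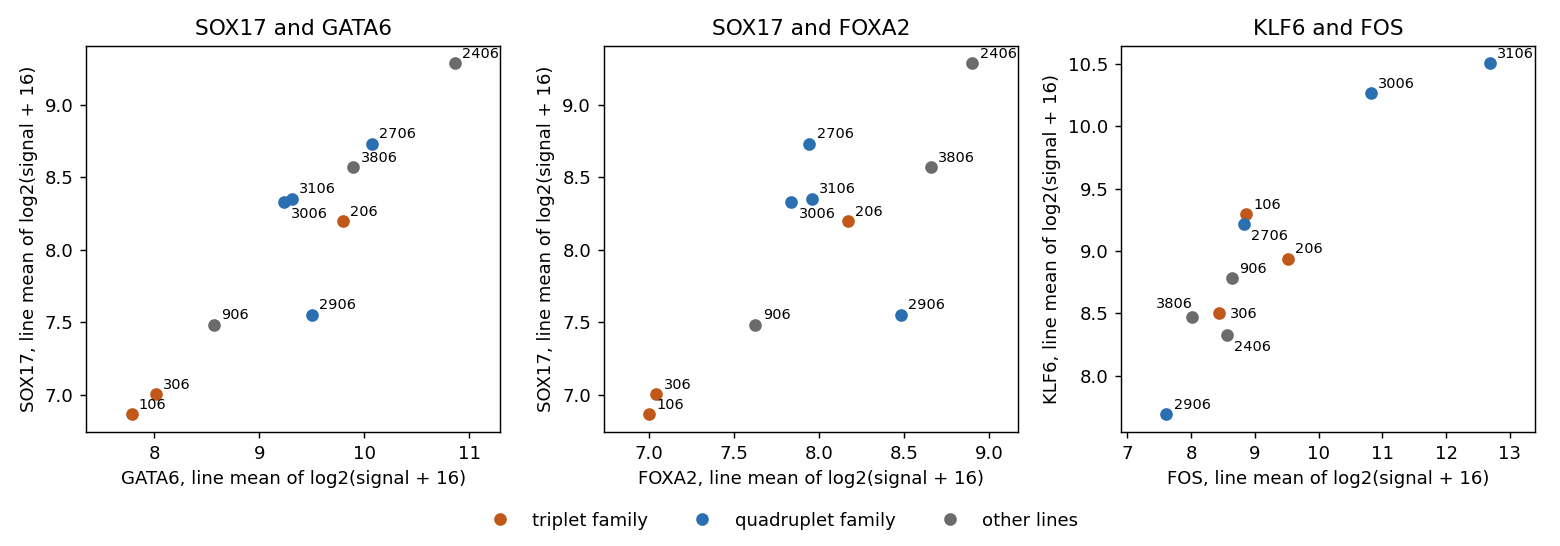
Line means of SOX17 against GATA6 (left) and FOXA2 (middle), and of KLF6 against FOS (right), all in log2(signal + 16), with 1 labelled point for each of 10 lines, coloured by family. SOX17 rises with GATA6 (r = 0.94) from line 106 to line 2406, with line 2906 below the others at its GATA6 level, and KLF6 rises with FOS (r = 0.92), where lines 3006 and 3106 stand apart at the top.

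The other SOX genes did not pass the test. SOX3 came nearest, with a range of 1.01 log2 units (adjusted p 0.0544), from 9.43 ± 0.19 (SD, n = 3) in line 906 to 10.45 ± 0.29 (SD, n = 3) in line 2706. SOX21 had an adjusted p of 0.0710 and SOX11 of 0.105, with SOX11 at 12.17 on the array of line 2906 and between 10.83 and 12.09 elsewhere. A SOX11 probe set present on 22 arrays also put line 2906 highest (r = 0.81 with the first over the lines). Another, present on 23 arrays, put that line lowest (r = -0.04). SOX3 did not follow SOX2 over the lines (r = 0.03, permutation adjusted p 0.939), nor SOX4 follow SOX11 (r = -0.16, permutation adjusted p 0.903). With the fibroblast marker COL1A2, r was -0.11 for SOX9 and 0.15 for FOXC1 (permutation adjusted p 0.903 for both). SOX2 itself read 12.83 on 106c and 13.67 to 14.43 on every other array.

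SOX4 gave different answers by probe set. The brightest had a range of 0.60 log2 units and an adjusted p of 0.408. The other 2 probe sets that were present on all arrays differed among lines, with ranges of 0.97 and 1.91 log2 units (adjusted p 0.0311 and 0.0153). Their line means followed the brightest with r = 0.47 and r = 0.00. The forkhead gene FOXN3 was similar in that its other 3 probe sets, present on all arrays too, ran against the brightest (r from -0.69 to -0.33), with no probe set past the threshold.

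FOXP1, of which human embryonic stem cells are known to make a splice form of their own, had a range of 1.84 log2 units, a 3.59-fold difference (adjusted p 0.0043). The array of line 2906 read 11.34, above every other array. Line 2406 read 9.95, 10.38 and 10.86, line 2706 read 10.64, 9.98 and 10.47, and line 306 read 10.13, 9.93 and 10.65. Lines 906 and 3006 were lowest, with 9.56, 9.56 and 9.36, and 9.56, 9.48 and 9.51.

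A second FOXP1 probe set present on all arrays gave the same order at its top and followed the first (r = 0.93, adjusted p 0.0054). Without line 2906 the range of the first was 0.90 log2 units and its adjusted p 0.0270, and with the 6 arrays of high GAPDH ratio left out the adjusted p was 0.123. As a mean of all 4 probe sets, 2 of them absent on most arrays, FOXP1 did not pass (adjusted p 0.349). FOXP4, a partner that can pair with FOXP1, was also highest on the array of line 2906, at 10.90, against 9.70 to 10.69 on the others (adjusted p 0.0159). Without line 2906 its adjusted p was 0.0848, and as a mean of probe sets it was 0.414. The deposited labels do not say which splice forms these probe sets read.

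FOXQ1, an epithelial forkhead factor, had a range of 3.40 log2 units or 10.6-fold (adjusted p 0.0020), which fell to 2.38 with a pseudocount of 64, where that of KLF10 was 3.27. It read 8.68 on the array of line 2906, 8.16, 7.83 and 8.32 in line 2406, and 4.79, 5.17 and 5.87 in line 3806. Line 106 was also low, with 6.55, 5.59 and 5.64. Only 1 array each of lines 206, 2706 and 2906 called the gene present. The high values of line 2406 therefore had no present call either. The low values are background, and the fold depends on the pseudocount. FOXE1 passed the test (range 2.03 log2 units, adjusted p 0.0409) with a present call on 0 arrays, so its values describe signal near background. A second FOXE1 probe set, also present on 0 arrays, had a range of 0.61 log2 units and did not follow the first (r = -0.10 over the lines). The call was lost in 25 of the 46 alternatives in which FOXE1 could be tested, and in 3 more it was not tested.

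FOXM1, the mitotic forkhead factor, did not pass (range 0.64 log2 units, adjusted p 0.317). Its highest array was 2406e at 11.29 and its lowest 2706a and 2706b at 10.21. Of 12 known FOXM1 targets tested 3 differed among lines (CENPF, NEK2 and ECT2), and NEK2 had the largest range, 2.66 log2 units. FOXM1 had r = 0.13 with its target CCNB1 over the lines (permutation adjusted p 0.903), and r = 0.61 over the 9 lines that remain without the arrays of high GAPDH ratio. Of 8 genes upstream of the FOXO proteins SGK1 alone differed, and of 9 FOXO targets BCL2L11, TXNIP and SOD2 did.

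Of the 7 relatives left out, 5 differed among lines (FOXN1, FOXA1, FOXA2, FOXO1 and KLF5), and SOX2 (adjusted p 0.115) and FOXD3 (adjusted p 0.135) did not pass. KLF5 had the largest range of them, 4.71 log2 units, highest in line 3006 as KLF10 was. Of 8 SP genes, the nearest relatives of the KLF family, only SP5 passed, and of 3 TCF genes, which share the SOX box, only TCF7L2 did. Of 11 genes of the Nodal pathway 4 passed (NODAL, GDF3, CFC1 and SMAD3). Among marker lists, 1 of 8 pluripotency genes (ZFP42), 1 of 4 neural crest genes (TWIST1) and 2 of 6 trophoblast genes (GATA3 and KRT8) passed, as did 0 of 4 mesoderm, 0 of 3 neural and 0 of 2 blood and endothelial genes in the limma F test. These 0 counts cover few genes, and TBXT, KDR, CDH5, PTPRC and NEUROG2 were called present on no array.

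Male and female lines were compared with limma on the mean of each line, 5 against 5. None of the 38 tested members passed (0 of 38, against a background of 0.00885%, 1 of 11299 genes), and 3 had an unadjusted p under 0.05, as had 5.12% of all genes. KLF4 was higher in male lines by 1.15 ± 0.42 log2 units (SE, adjusted p 0.774), FOXP4 lower by 0.40 and SOX13 lower by 0.26 (adjusted p 0.774 for both). Of the members 14 of 38 were higher in males, a count whose share over all genes was not computed. The median difference was -0.07 log2 units, beside -0.01 over all genes.

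KLF8 was the 1 member whose male and female line means did not overlap, against 0.929% of genes. This X-linked gene read 7.91 to 8.44 in the male lines and 8.50 to 8.75 in the female lines. The difference was -0.27 ± 0.14 log2 units, male minus female (SE, adjusted p 0.774). The X-linked gene SOX3 differed by 0.08 ± 0.25 and FOXO4 by -0.07 ± 0.17 log2 units (SE). FOXR2, also X-linked and present on 1 array, was higher in male lines, by 0.29 ± 0.20 log2 units (SE, adjusted p 0.792). Male and female lines overlapped for SOX3, FOXO4 and FOXR2.

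The quadruplet and triplet families were compared in the same way, 4 lines against 3. None of the 38 members passed (0 of 38, against 0.0708%, 8 of 11299 genes), and 6 had an unadjusted p under 0.05, as had 8.40% of all genes. FOXP2 had the smallest p and was lower in the quadruplet lines by 1.13 ± 0.17 log2 units (SE, adjusted p 0.0905), with a present call on 0 arrays. The other FOXP2 probe sets did not follow this one (r from -0.17 to 0.19 over the lines), and one of these was called present on 2 arrays. KLF4 differed by -1.59 ± 0.31 log2 units, quadruplet minus triplet (SE, adjusted p 0.184), with means of 8.24 to 9.48 in the quadruplet and 10.04 to 10.65 in the triplet lines. COL1A2 differed by -2.12 log2 units in the same direction (adjusted p 0.0450), and was the only 1 of the 8 fibroblast markers tested that passed. Without the 4 arrays of highest median the KLF4 difference was -1.11 log2 units (adjusted p 0.343).

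FOXI1 differed by 0.96 ± 0.22 log2 units (SE, adjusted p 0.240), also with a present call on 0 arrays. Line means of the families did not overlap for 6 of the 38 members (FOXI1, FOXO6, FOXP2, KLF4, KLF10 and SOX6), against 12.2% of genes. SOX17 was at 8.24 ± 0.49 (SD, n = 4) in the quadruplet and 7.35 ± 0.74 (SD, n = 3) in the triplet lines, a difference of 0.89 ± 0.38 log2 units (SE, adjusted p 0.508). Without line 2906 and the 4 arrays of highest median, a choice made after the data were seen, the difference was 1.64 ± 0.21 (SE, adjusted p 0.0419). FOXE1 also passed then (adjusted p 0.0249), with 19 genes in all, though it had a present call on 0 arrays and its second probe set did not follow the first. Quadruplet lines were higher for 25 of 38 members, namely 13 of 17 FOX, 7 of 10 SOX and 5 of 11 KLF genes. The share of all genes higher in quadruplet lines was not computed. The median difference was 0.13 log2 units over the members and -0.04 over the KLF genes, beside -0.01 over all genes.

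**Figure D5:**
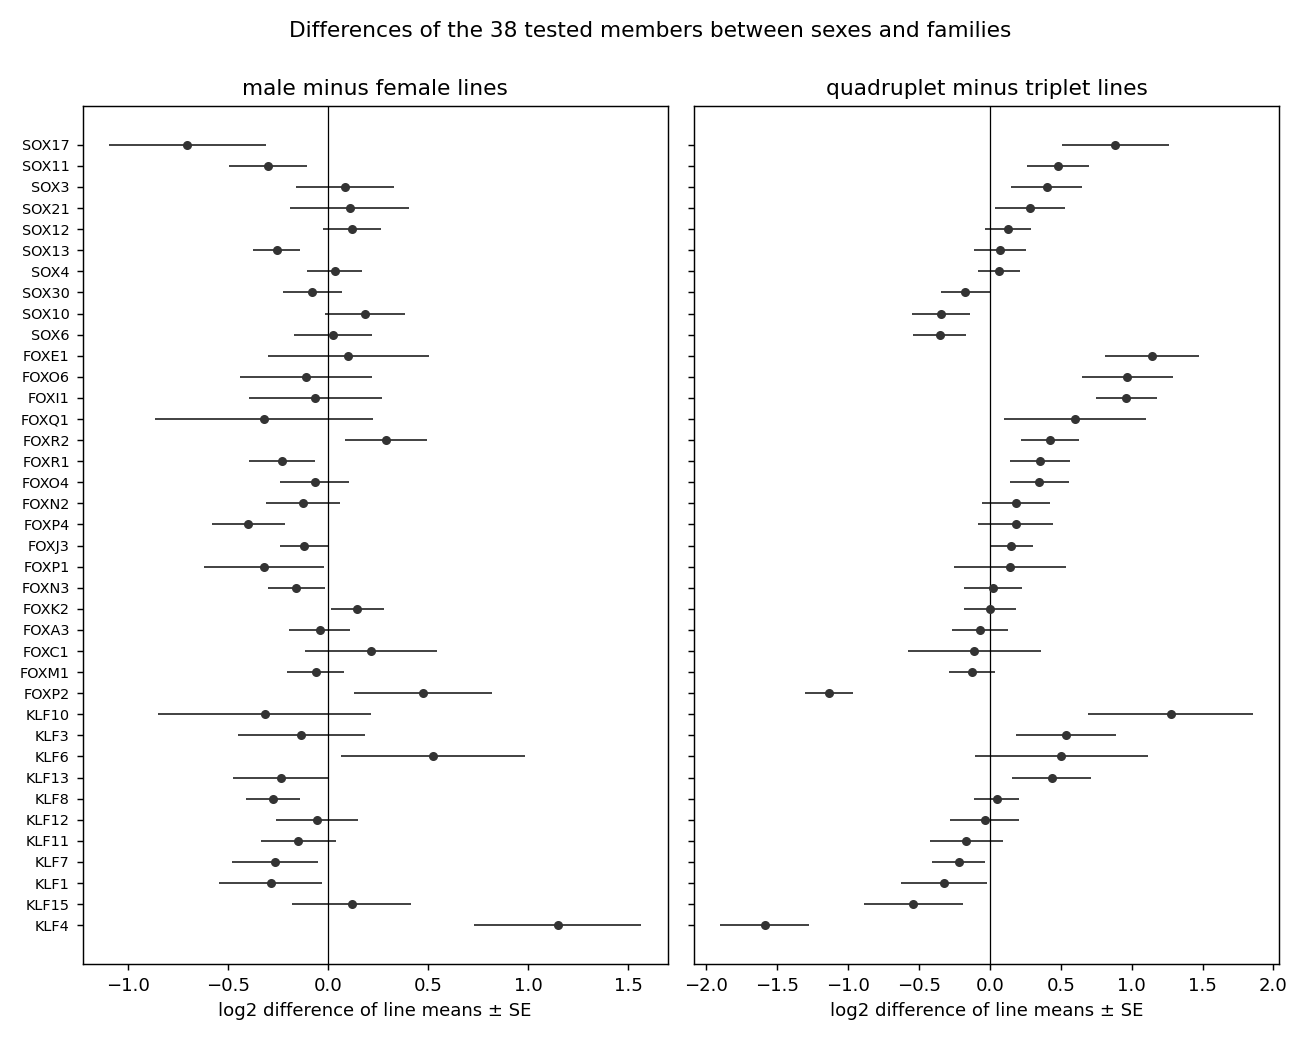
Difference of line means with its SE, in log2 units, for the 38 tested members, male minus female (left) and quadruplet minus triplet (right), with genes on the y axis grouped by family and ordered by the family difference. KLF4 has the largest positive sex difference, 1.15, and the largest negative family difference, -1.59, and no member passed an adjusted p of 0.05 in either comparison.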

How the data were processed

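Total RNA (300 ng per sample, per the labels' protocols) from 27 samples was hybridised to Affymetrix rhesus arrays. Each array has 1 deposited intensity value for a probe set. The submitters' processing notes name GCOS, in a version not given in the sources used here. Their 2% trimmed mean was 500.035 to 500.041 on every array, so the deposited intensity values had been scaled. A second deposited table gives the authors' present, marginal and absent calls, and another the sex and parents. Of 52865 probe sets 158 controls were set aside, and 24956 of the others carried 1 symbol in the platform annotation.

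Values were analysed as log2(signal + 16), which understates changes of dim genes. Probe sets brighter than the array median on at least 3 arrays were tested with limma 3.58.1 in R 4.3.3, lines by the F test on arrays, sexes and families on line means, with Benjamini-Hochberg adjustment over all 32856 tested probe sets. Percentages of genes are over the 11299 with 1 symbol that were tested. Correlations used 100000 permutations, two-sided, adjusted over 10 pairs. The number of arrays limits the precision. The fits were tested on simulated data.

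The members, lists, pairs and alternatives were chosen with earlier results of these data known. Named were members present on all, some or no arrays, up to 12 past the F test with the largest range, the 3 of smallest p for sex and family, fixed members (SOX3, SOX4, SOX11, SOX17, FOXM1, FOXP1, KLF2, KLF4 and KLF6), the relatives left out, and up to 2 genes of each other list, with further list genes named where a count was 5 or fewer. Alternatives changed the pseudocount, filter, normalization, probe set rule, arrays and lines. Sequences were not used here.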

Additional observations from a re-analysis of the deposited data

Results flagged for a closer look

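Among 39 groups of line means checked for a value far from the others, 4 were picked out; chance alone picks about 1 group in 20. KLF10 in line 3006 had a mean of 14.02 log2 units where the next line had 12.11, and its 3 arrays read 14.12, 14.25 and 13.70. FOXP1 in line 2906 was at 11.34, from a single array, where the next line had 10.40. KLF8 in line 906 was at 7.91, below the next line at 8.37, with arrays of 7.75, 8.29 and 7.70. KLF4 in line 206 was at 10.04 among the female lines, where the next had 8.54, and its arrays read 8.89 and 11.20.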

How the results depend on the processing

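Of the alternatives for differences among lines, 2 moved the count of members from 12 by over 1.5 times: without arrays of high GAPDH ratio it was 7 (KLF3 gained; FOXE1, FOXP1, FOXP4, KLF1, KLF12 and KLF4 lost), and without line 3006 it was 7 (FOXE1, KLF1, KLF10, KLF12 and KLF13 lost). The others gave 8 to 15, with 8 for the mean of a gene's probe sets (FOXP1, FOXP4 and KLF12 lost, FOXE1 not tested) and 11 to 15 when 1 array was left out. The array letter as a replicate block gave 12 (FOXE1 and KLF1 lost, FOXI1 and SOX11 gained). The 4 arrays of highest median all carry the letter c. Deviations from the line means were correlated between arrays of different lines. The median r was 0.06 for the same letter (-0.24 to 0.53) and -0.03 for different letters (-0.53 to 0.39). Whether the letter groups arrays was not tested. KLF6 and KLF7 passed in all 49 alternatives, while FOXE1 was lost in 25 of 46. The variance share moved from 37.7% to 38.7% with a pseudocount of 64, 45.7% without the 4 arrays of highest median and 38.2% without arrays of high GAPDH ratio. The sex count was 0 throughout, and the family count was 0 except for 2 without line 2906 and the 4 arrays of highest median, chosen after the data were seen; both stayed at 0 when any 1 line was left out alone.

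Directions turned only for small differences that did not pass. For sex, without arrays of high GAPDH ratio FOXM1 was 0.036, FOXP1 0.064, KLF6 -0.13 and SOX4 -0.11. SOX3 was -0.0038 and SOX4 -0.013 without the 4 arrays of highest median, and SOX4 was -0.19 as a mean of probe sets and -0.0047 with family as covariate. With a line left out, SOX3 was -0.0032 without 106, -0.021 without 206, -0.0057 without 2406 and -0.042 without 2706, SOX4 was -0.0041 without 3106 and -0.056 without 3806, and FOXM1 was 0.024 without 2406. For family, FOXP1 was -0.11 as a mean of probe sets, -0.22 without arrays of high GAPDH ratio, -0.22 without line 2906, -0.035 with a line block and -0.069 without line 2906 and the 4 arrays. Correlations turned for KLF4 with FOS (-0.028, -0.087, -0.32), SOX9 with COL1A2 (0.17, 0.55), FOXC1 with COL1A2 (-0.33, -0.30), SOX3 with SOX2 (-0.068) and SOX4 with SOX11 (0.30, 0.091). The causes were not tested. Genes called absent have signal near background, which limits their differences.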
